A study of Mus musculus with 12 samples.

Results

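The Hox genes of the 4 mammalian clusters were followed through the differentiation of 3T3-L1 cells, a mouse embryonic fibroblast line that is committed to the adipocyte lineage and accumulates fat after hormonal induction. The 38 members were taken by symbol from a table of 55487 genes: 10 of the HoxA cluster, 10 of HoxB, 9 of HoxC and 9 of HoxD. RNA-seq had been made from 12 libraries, 2 in each of 6 groups. Cells of the control line carried a lentiviral scrambled hairpin (shScram), and cells of the knockdown line carried a hairpin against Fto, the RNA m6A demethylase (shFto). Both lines were sampled as confluent preadipocytes (Pre), at the mitotic clonal expansion stage (MCE) and as differentiated cells (Diff), the latter stages after the MDI induction medium that both lines received. All 12 libraries therefore come from puromycin-selected, hairpin-carrying cells, and no library of untransduced cells was used here. The sources do not say which Fto hairpin was sequenced or whether the libraries of a group came from separate cultures, so the p-values measure the spread between these libraries, which may be technical. Each hairpin was sequenced in 1 line, so that the knockdown and the history of the line cannot be told apart. The label of 1 library, shScram Diff 1, names shScram in its title and an Fto knockdown in its treatment entry; it was kept with shScram by its title, and Fto stood at 52.7 to 73.5 TPM, a level per transcript length and library total, in the 6 shScram libraries and at 5.51 to 7.47 TPM in the 6 shFto libraries.

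Hox genes encode homeodomain transcription factors that give cells along the body axis and the limbs their positional identity. Each cluster is a row of genes whose order on the chromosome follows the order of their expression domains, from anterior genes with low paralogue numbers to posterior genes with high ones, and genes with 1 number in different clusters are paralogues. Polycomb proteins keep clusters silent where they are not used, trithorax proteins keep them active, and cultured fibroblasts and fat depots are known to keep the Hox pattern of the site they came from.

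The homeobox, the stretch of 180 bases that encodes the DNA-binding homeodomain, was found in the reading frame of 38 of 38 members in the GENCODE M21 transcripts. It shows how close the paralogues are that the results below turn on. Hoxa2 and Hoxb2 are shown because they moved in opposite directions between the lines, with capitals at the bases that differ within the pair:
Hoxa2: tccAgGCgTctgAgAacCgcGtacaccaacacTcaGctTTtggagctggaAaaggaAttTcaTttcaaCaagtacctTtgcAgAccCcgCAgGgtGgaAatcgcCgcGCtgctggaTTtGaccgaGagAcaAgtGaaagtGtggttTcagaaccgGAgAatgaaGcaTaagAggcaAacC
Hoxb2: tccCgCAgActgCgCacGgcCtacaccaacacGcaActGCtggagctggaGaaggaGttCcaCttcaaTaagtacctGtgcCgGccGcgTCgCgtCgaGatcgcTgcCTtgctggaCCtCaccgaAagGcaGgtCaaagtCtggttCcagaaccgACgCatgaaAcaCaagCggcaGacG
The pair shared 134 of 180 bases (74.4%), its longest identical run was 11 bases, and 60 of 60 encoded residues were identical, so that the differences were silent in 39 codons. Hoxb4 and Hoxd4 shared 145 of 180 bases (80.6%), with a longest identical run of 29 bases, and 57 of 60 residues. They were the 2 members called for a difference between the lines in the step to MCE, calls that most other settings described below did not keep. Over the 40 pairs of members with the same paralogue number the homeoboxes shared 121 to 169 bases (median 145), against 83 to 160 (median 109) over the 663 pairs with different numbers. Runs of 40 bases were compared between the transcripts of members and of all other annotated genes. This length is the lower end of the fragment size that the paper selected for its m6A and input libraries. Hoxa4, Hoxb2, Hoxc13 and Hoxd8 shared none, Hoxb4 shared 22 of 2516 and Hoxb6 16 of 1908. Hoxa2 shared 230 of 1736, all of them with the overlapping transcript Gm28308. Hoxd3 and Hoxd4 shared 60.7% and 47.9% of theirs, mostly with the read-through gene Gm28230 and with each other, so the split of reads between these 2 genes is uncertain.

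In GRCm38 the HoxA members lay on chr6:52162417-52260880, HoxB on chr11:96194316-96368256, HoxC on chr15:102921103-103036852 and HoxD on chr2:74668310-74765142. Exons of 15 of the 38 members overlapped an exon of another annotated gene, 9 of them on the same strand and 9 on the opposite strand. Among members described below this touched Hoxa2 (Gm28308), Hoxa3 (Gm28308 and 4 genes on the other strand), Hoxa4 (Gm29430), Hoxa7 (Hoxaas3), Hoxb2 and Hoxb3 (both Hoxb3os), Hoxb5 (Hoxb5os), Hoxd3 and Hoxd4 (each other, Gm28230 and Hoxd3os1). Whether reads were counted by strand is not given in the sources used here, so these levels are uncertain to that extent. No exon overlap was annotated for Hoxb4, Hoxb6, Hoxc13 or Hoxd8.

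Most of the members were low or listed at 0. In all 12 libraries 7 members were listed at 0 (Hoxa13, Hoxb1, Hoxb7, Hoxc8, Hoxc11, Hoxc12 and Hoxd1). A further 12 were above 0 in some library and under 1 TPM in every library (Hoxa11, Hoxb8, Hoxb9, Hoxb13, Hoxc4, Hoxc5, Hoxc9, Hoxc10, Hoxd10, Hoxd11, Hoxd12 and Hoxd13). Hoxa9, Hoxb5 and Hoxc6 reached 1 TPM in 1 library each, with highest values of 1.10, 1.03 and 1.43 TPM. The other 16 passed the filter of 1 TPM in 2 libraries and were tested among 15968 genes: 7 of HoxA, 4 of HoxB, 1 of HoxC and 4 of HoxD. Hoxb6 passed that filter through shFto libraries only and Hoxc13 only through preadipocyte libraries, so counts over the members that passed describe these 16 and not the family. The TPM files carry no depth, so no limit can be put on a value listed at 0.

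From paralogue number 11 onward the genes were low in both lines, and Hoxc13 alone of them reached 1 TPM. Hoxd9 and Hoxa10, with lower numbers, were at 3.08 TPM or more in every library. Of the 9 HoxC members, 7 stayed under 1 TPM in every library. Both lines held 1 shared set of active genes: Hoxa2, Hoxa3, Hoxa4, Hoxa5, Hoxa6, Hoxa7, Hoxa10, Hoxb3, Hoxb4, Hoxd4, Hoxd8 and Hoxd9 were at 1 TPM or more in 12 of 12 libraries. No other member did so in shScram. In shFto, Hoxb2 and Hoxb6 joined them, making 14, and no member held this level in shScram without holding it in shFto. Hoxb2 missed the shScram set through 1 library, shScram Pre 1 at 0.966 TPM, and with a limit of 0.5 TPM it was in the set of both lines. With a limit of 0.5 TPM the counts were 14 in shScram and 15 in shFto, and with 2 TPM they were 10 and 13.

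**Figure D1:**
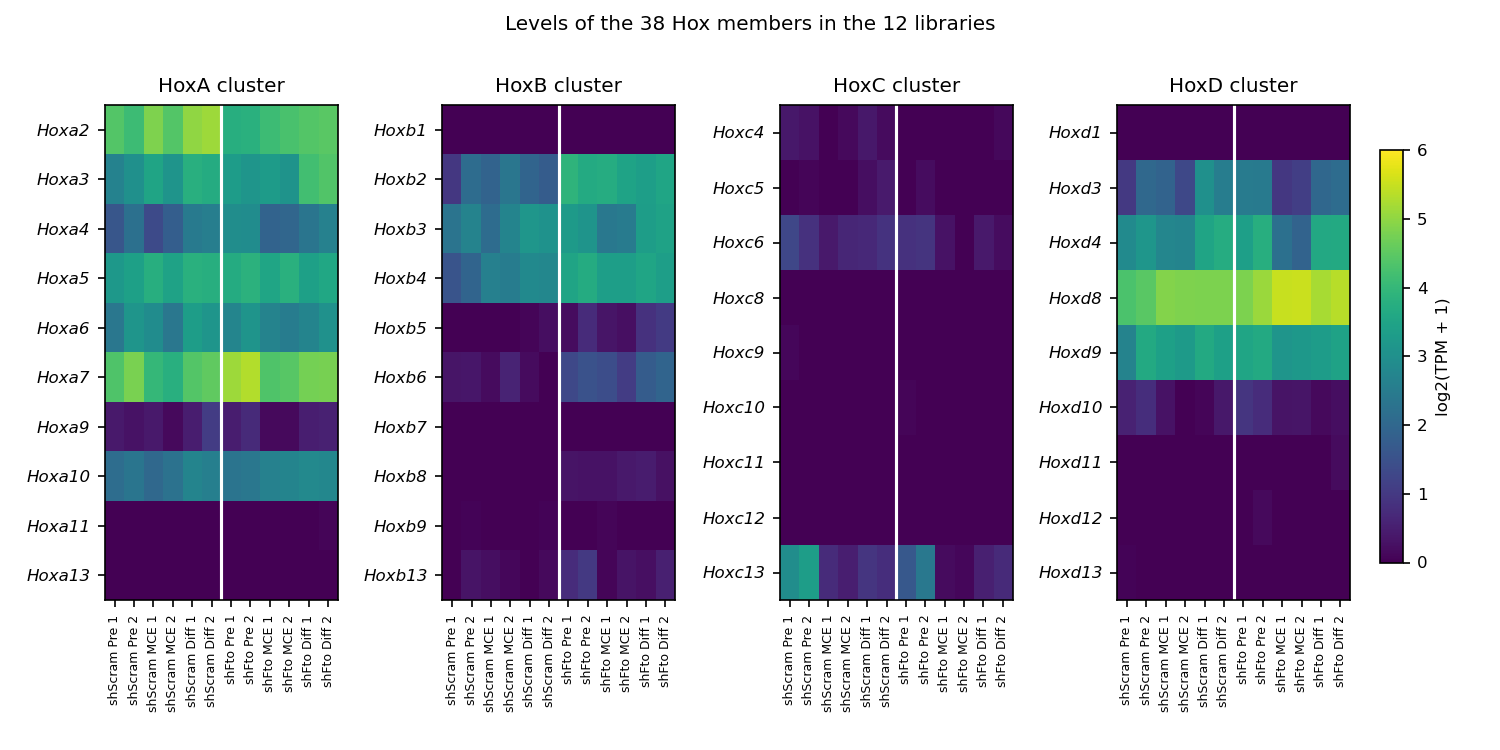
Each cell gives log2(TPM + 1) of 1 member (rows, ordered by paralogue number within the 4 clusters) in 1 library (columns, shScram left and shFto right of the white line). The HoxA genes from Hoxa2 to Hoxa7 and Hoxd8 were bright in the 12 libraries, HoxC was dark apart from Hoxc13 in preadipocytes, and Hoxb2, Hoxb4 and Hoxb6 were brighter in shFto.

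Over the 38 members the profile of log2(TPM + 1) was alike in all pairs of libraries compared. Pearson's r was 0.978 to 0.998 between the 2 libraries of a group (6 pairs) and 0.901 to 0.977 between the lines at 1 stage (12 pairs, median 0.958). Between stages it was 0.930 to 0.984 in shScram (median 0.945, below that between the lines) and 0.942 to 0.978 in shFto (median 0.969). With the HoxB genes left out, r between the lines at 1 stage was 0.948 to 0.989 over the other 28 members (median 0.984). These values describe the libraries; the points are genes of 1 genome, many of them at 0 in both libraries, and carry no test.

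The clusters differed in how much of the Hox RNA they held. The summed level of the 38 members was 110.5 to 172.6 TPM in shScram and 153.5 to 196.9 TPM in shFto. HoxA genes made up 50.6 to 57.9% of this sum in shScram and 44.7 to 49.1% in shFto. HoxB genes made up 6.42 to 12.5% in shScram (median 8.96%) and 16.6 to 20.2% in shFto (median 17.9%). HoxD genes held 28.9 to 36.0% and 30.3 to 36.8%, and HoxC genes 0.738 to 7.74% and 0.0446 to 2.73%. The HoxA and HoxB shares of the 2 lines did not overlap, whereas those of HoxC and HoxD did. The summed HoxA level itself overlapped between the lines (61.0 to 99.1 TPM in shScram, 68.5 to 96.7 TPM in shFto), and in preadipocytes both shFto libraries (83.6 and 91.8 TPM) stood above both control libraries (62.9 and 75.3 TPM).

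**Figure D2:**
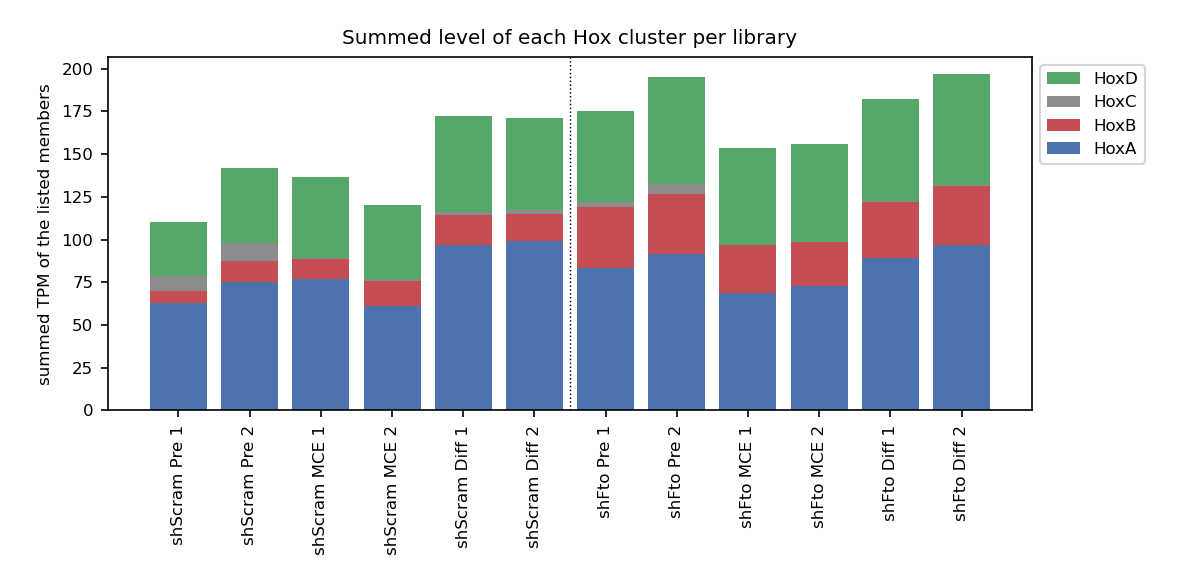
Stacked bars give the summed TPM of the members of each cluster in each of the 12 libraries. The HoxB segment stood at 7.10 to 17.1 TPM in shScram and at 25.9 to 35.4 TPM in shFto, and the HoxC segment was largest in the shScram preadipocytes.

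Hoxa7, Hoxd8 and Hoxa2 were the 3 highest members of shScram at each stage, with 45 to 52.6% of the Hox sum per library. In shScram preadipocytes their means were 23.0 ± 4.98, 19.9 ± 1.77 and 18.2 ± 2.61 TPM (SD, n = 2), an order within the spread of the libraries. In shScram Diff cells the order was Hoxa2 at 32.6 ± 1.77, Hoxd8 at 27.3 ± 0.234 and Hoxa7 at 21.1 ± 1.28 TPM, each step larger than the SDs. In shFto preadipocytes the third place was held by Hoxb2 at 12.9 ± 1.47 TPM, within the spread of Hoxa5 (12.7 ± 1.08) and Hoxa2 (12.7 ± 0.252). TPM are per transcript length, so these levels can be compared between genes.

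Several facts about the libraries bear on the tests. The libraries of shScram Pre correlated at r = 0.939 with each other, against 0.990 to 0.993 in the other 5 groups, and deviations of shScram Pre followed the GC content of genes with a Spearman rho of -0.688 (15928 genes) against -0.204 to 0.356 in the other groups. Fibroblast markers summed to 8283 to 13503 TPM, and 8 of 8 were tested. Averaged over the stages 4 of them were higher in shFto (Col1a1, Col3a1, Pdgfrb and Thy1) and Vim was lower, with Col3a1 and Thy1 higher and Vim lower at each stage. The 8 adipocyte markers summed to 1511.5 to 1519.1 TPM in shScram Diff and 411.8 to 450.2 TPM in shFto Diff, with 6 of the 7 tested lower in shFto. In preadipocytes the order was the other way, at 130.0 to 192.0 TPM in shScram and 265.9 to 297.5 TPM in shFto, where Lpl, the lipoprotein lipase gene, was higher. Lep, the leptin gene, stayed under 1 TPM in every library. Summed markers of macrophages, endothelium and epithelium were at most 4.06, 1.15 and 1.12 TPM, with Adgre1 and Kdr listed at 0 in every library. Skeletal muscle markers summed to 3.28 to 8.02 TPM in shScram and 6.34 to 13.2 TPM in shFto, almost all of it desmin (Des), with Myod1 listed at 0. The part of these differences in the Hox results was not tested, and in bulk RNA fewer cells of a type and less RNA per cell cannot be told apart.

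The comparison of shFto with shScram asks which Hox genes differed in the knockdown line. Differences are log2 fold changes on the log2(TPM + 1) scale with their standard error (SE), which understates the change of low genes, and p-values are from limma with Benjamini-Hochberg adjustment over 15968 genes. In preadipocytes 7 members were higher in shFto (Hoxa4, Hoxa7, Hoxb2, Hoxb3, Hoxb4, Hoxb6 and Hoxd8), where 15.9% of all genes were, and Hoxc13 was lower, where 12.3% were. At MCE 5 were higher (Hoxa10, Hoxb2, Hoxb4, Hoxb6 and Hoxd8; 10.5% of all genes) and Hoxd4 was lower (7.26%). The MCE calls of Hoxa10 (0.53) and Hoxd4 (-0.67) were lost under 15 of 21 and 10 of 22 alternatives, among them leaving out any library of that stage (adjusted p of 0.0733 to 0.215 and 0.0719 to 0.246). In Diff cells 4 were higher (Hoxb2, Hoxb4, Hoxb6 and Hoxd8; 11.9%) and Hoxa2 was lower (9.31%). Hoxb2, Hoxb4, Hoxb6 and Hoxd8 were thus higher at each of the 3 stages. Hoxb6 was counted at each stage because shFto libraries alone carried it past the filter, and so in the averaged count and median below. With no filter its adjusted p at the 3 stages was 0.0186, 0.0462 and 0.0016.

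Averaged over the stages, 8 members were higher in shFto (24.5% of all genes) and 2 were lower (18.3%). The higher ones were Hoxa4, Hoxa7, Hoxa10, Hoxb2, Hoxb3, Hoxb4, Hoxb6 and Hoxd8, and the lower ones Hoxa2 and Hoxc13. The median over the 16 tested members was 0.27, against 0.06 over all genes. The counts within a stage rested on few libraries. The SE of limma pools the spread over all groups, though the shScram Pre libraries were less alike than those of other groups. Fitted to the preadipocyte libraries only, each of the 8 preadipocyte calls was lost, with adjusted p of 0.155 (Hoxb4) to 0.301 (Hoxb3). The preadipocyte count of 8 calls was 14 without shScram Pre 2, 4 without shFto Pre 1, 3 without shFto Pre 2, and 0 when the 4 libraries of the stage were fitted alone. The MCE count of 6 was 0 without shScram MCE 1 or shFto MCE 1, 2 without shScram MCE 2 and 1 without shFto MCE 2. The Diff count of 5 was 8 without either shScram Pre library, 3 without either shFto MCE library, 2 without shScram Diff 1 or shFto Diff 1, and 1 without shScram Diff 2 or shFto Diff 2. The averaged count of 10 stayed at 7 to 12 when any library was left out.

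**Figure D3:**
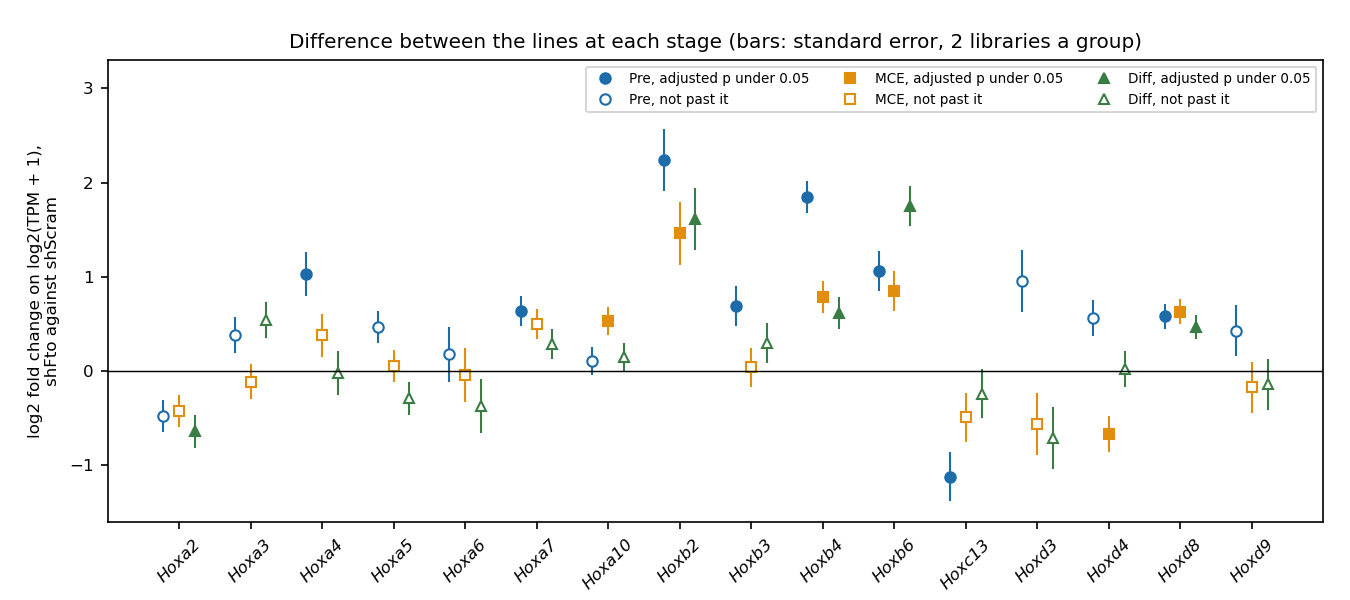
Points give the log2 fold change of shFto against shScram on the log2(TPM + 1) scale for the 16 tested members at Pre, MCE and Diff, bars the standard error of the fit, and filled points those with an adjusted p under 0.05. Hoxb2 (2.24, 1.46 and 1.61), Hoxb4 (1.85, 0.79 and 0.62) and Hoxb6 (1.06, 0.85 and 1.75) lay furthest above 0 in the order of the stages.

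Of the 4 tested HoxB genes, Hoxb2, Hoxb6 and Hoxb4 had averaged differences over 1, and Hoxb3 did not. Hoxb2, an anterior gene known for its role in hindbrain segments, stood in shScram at 0.966 and 3.38 TPM in the preadipocyte libraries, 2.76 and 4.15 TPM at MCE and 2.82 and 2.37 TPM in Diff cells. In shFto it stood at 13.9 and 11.8, 12.2 and 10.1, and 9.36 and 10.6 TPM. The 6 shFto libraries lay above the 6 shScram libraries with a wide gap, and neither line showed a change between stages that passed the test. The mean in shFto was 5.92-fold that of shScram in preadipocytes, 3.23-fold at MCE and 3.84-fold in Diff cells. The preadipocyte fold was 3.81 without shScram Pre 1 and 13.3 without shScram Pre 2. The log2 fold change averaged over the stages was 1.77 (SE 0.19, adjusted p = 0.000159). The preadipocyte call (2.24, adjusted p = 0.00277) was lost when limma was fitted to the libraries of that stage only (adjusted p = 0.199). With no filter on low values the MCE call was lost (adjusted p = 0.0529). The MCE call (1.46, adjusted p = 0.0169) was lost without shScram MCE 1 (adjusted p = 0.118), shFto MCE 1 (0.116) or shFto MCE 2 (0.0692), and the Diff call (1.61, adjusted p = 0.00927) without shScram Diff 2 (0.0665) or shFto Diff 2 (0.0679).

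Hoxb4, known for its effect on blood stem cell expansion and for patterning the neck vertebrae, stood in shScram at 1.93 and 2.85 TPM in preadipocytes, 5.16 and 4.77 at MCE and 6.18 and 5.91 in Diff cells. In shFto the values were 10.3 and 11.9, 9.35 and 9.24, and 10.5 and 9.29 TPM. The lines did not overlap, and shScram increased from Pre to MCE while shFto stayed near its starting level. The difference was 1.85 (SE 0.17, adjusted p = 0.000239) in preadipocytes, 0.79 (SE 0.17, adjusted p = 0.0114) at MCE and 0.62 (SE 0.17, adjusted p = 0.0271) in Diff cells. The preadipocyte call was lost when limma was fitted to the libraries of that stage only (adjusted p = 0.155). The calls at MCE and Diff were lost when any library of that stage was left out (adjusted p of 0.0519 to 0.157), whereas the average over the stages of 1.09 was not (SE 0.10, adjusted p = 4.56e-05).

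Hoxb6, a mid-cluster gene of the thoracic region, stood in shScram at 0.264 and 0.278 TPM in preadipocytes, 0.127 and 0.518 TPM at MCE, and 0.129 TPM and listed at 0 in Diff cells. In shFto it stood at 1.47 and 1.86, 1.68 and 1.08, and 2.35 and 2.80 TPM. It was near 0 in 1 line and low but present in every library of the other. The averaged log2 fold change was 1.22 (SE 0.12). Since the shFto libraries alone carried Hoxb6 past the filter, its p is given from the limma fit with no filter on low values, where the average had an adjusted p of 0.000403 and the stages 0.0186, 0.0462 and 0.0016. The preadipocyte difference of 1.06 was 0.96 (adjusted p = 0.0563) without shFto Pre 2 and 0.69 (adjusted p = 0.0562) after a correction for the GC trend, and the MCE difference of 0.85 was 0.64 (adjusted p = 0.149) without shScram MCE 1 and 0.67 (adjusted p = 0.169) without shFto MCE 1. No fold is given for Diff cells, where 1 control library was listed at 0.

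The HoxB members below the filter were not tested. Hoxb5 was listed at 0 in the shScram preadipocyte and MCE libraries and at 0.0516 and 0.164 TPM in shScram Diff cells, and at 0.149 and 0.678, 0.266 and 0.193, and 0.822 and 1.03 TPM in shFto. Hoxb8 was listed at 0 in the 6 shScram libraries and at 0.199 to 0.381 TPM in the 6 shFto libraries. Hoxb13 stood at 0 to 0.251 TPM in shScram and 0.0594 to 0.991 TPM in shFto, which overlap, and Hoxb9 did not exceed 0.0513 TPM in any library. Hoxb7, between Hoxb6 and Hoxb8 on the chromosome, was listed at 0 throughout.

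Hoxb3 was the HoxB member with the smallest difference. It ranged from 3.36 to 7.87 TPM in shScram and from 4.28 to 10.0 TPM in shFto, so that the lines overlapped. Its difference was 0.69 (SE 0.21, adjusted p = 0.041) in preadipocytes and 0.04 (SE 0.21, adjusted p = 0.934) at MCE, where the sign turned under both other scalings (-0.01). The preadipocyte call was lost under 15 of 22 alternatives, among them both other scalings, the GC correction (0.39, adjusted p = 0.115) and leaving out shScram Pre 1 (0.50, adjusted p = 0.117), shFto Pre 1 (0.61, adjusted p = 0.183) or shFto Pre 2 (0.77, adjusted p = 0.105), and the averaged call of 0.34 (SE 0.12, adjusted p = 0.049) under 17 of 21 alternatives.

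**Figure D4:**
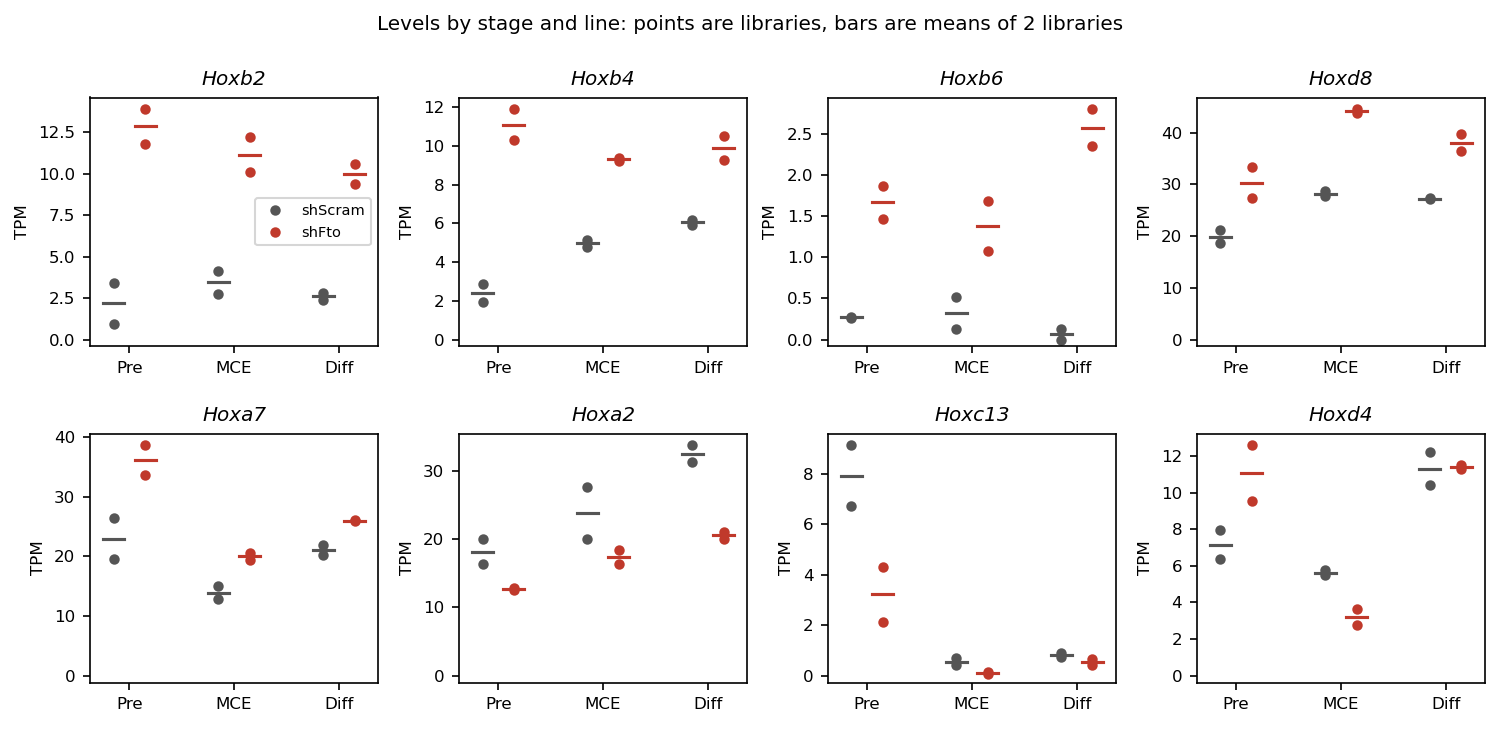
TPM (vertical axes, from about 0) of 8 members by stage, with shScram in grey and shFto in red; points are libraries and short bars the means of 2 libraries. Hoxb2, Hoxb4 and Hoxb6 were separated at each stage, Hoxa2 was lower in shFto, Hoxc13 was high only in preadipocytes, and Hoxd4 dipped at MCE, more so in shFto.

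Hoxd8, the highest HoxD gene and active in the trunk, stood in shScram at 18.6 and 21.1 TPM in preadipocytes, 28.7 and 27.7 at MCE and 27.4 and 27.1 in Diff cells. In shFto it stood at 27.3 and 33.4, 43.9 and 44.6, and 36.4 and 39.8 TPM. At each stage both shFto libraries were above both shScram libraries. The difference was 0.58 (SE 0.13, adjusted p = 0.0142), 0.63 (SE 0.13, adjusted p = 0.0103) and 0.47 (SE 0.13, adjusted p = 0.0333) at the 3 stages, and 0.56 (SE 0.08, adjusted p = 0.000498) on average. After the GC correction the preadipocyte difference was 0.14 (adjusted p = 0.514), it was 0.44 (adjusted p = 0.0886) without shFto Pre 2, and the corrected Diff difference was 0.36 (adjusted p = 0.118). Leaving out any 1 library of the stage ended the MCE call (adjusted p of 0.0547 to 0.0813) and the Diff call (0.0925 to 0.199).

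Hoxa7, the highest HoxA gene on average and a gene of the thoracic region, stood in shScram at 19.5 and 26.5 TPM in preadipocytes, 15.0 and 12.8 at MCE and 20.2 and 22 in Diff cells. In shFto it stood at 33.6 and 38.7, 19.4 and 20.6, and 25.9 and 26.1 TPM. The libraries did not overlap within a stage, and both lines had their lowest values at MCE. The difference passed the test in preadipocytes (0.64, SE 0.16, adjusted p = 0.0229) and on average (0.47, SE 0.09, adjusted p = 0.00408), while at MCE it was 0.50 (adjusted p = 0.0702) and in Diff cells 0.29 (adjusted p = 0.258). The preadipocyte call was lost without shFto Pre 1 (0.74, adjusted p = 0.0719) or shFto Pre 2 (0.54, adjusted p = 0.119).

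Hoxa4 stood in shScram at 2.03 and 3.64 TPM in preadipocytes, 1.54 and 2.45 at MCE and 4.47 and 4.89 in Diff cells. In shFto it stood at 6.72 and 6.56, 2.77 and 2.94, and 4.02 and 5.21 TPM. The lines were apart in preadipocytes (1.03, SE 0.23, adjusted p = 0.0154) and overlapped in Diff cells, where the difference was -0.02 (SE 0.23, adjusted p = 0.956). The preadipocyte difference was 0.42 (adjusted p = 0.105) after the GC correction, 1.01 (adjusted p = 0.0872) without shFto Pre 1 and 1.04 (adjusted p = 0.0692) without shFto Pre 2.

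Hoxa2, the most anterior HoxA member listed and a regulator of the pharyngeal arches, moved the other way from its paralogue Hoxb2. It stood in shScram at 20.0 and 16.3 TPM in preadipocytes, 27.6 and 20.1 at MCE and 31.3 and 33.8 in Diff cells, and in shFto at 12.5 and 12.9, 16.3 and 18.4, and 20.1 and 21 TPM. Both shFto libraries lay below both shScram libraries at each stage. The difference was -0.48 (adjusted p = 0.0611), -0.42 (adjusted p = 0.129) and -0.64 (adjusted p = 0.0271), and the average over the stages of -0.51 (SE 0.10, adjusted p = 0.00323) held under 21 of 21 alternatives. The Diff call was lost when any library of that stage was left out (adjusted p of 0.0911 to 0.149). In shScram the summed level of Hoxa2 and Hoxb2 was therefore mostly Hoxa2, while in shFto preadipocytes their means were 12.7 ± 0.252 and 12.9 ± 1.47 TPM.

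The HoxA genes between these and the posterior end differed less. Hoxa3 ranged from 5.35 to 12.8 TPM in shScram and 7.52 to 19.8 TPM in shFto, with an averaged difference of 0.27 (adjusted p = 0.0718). Hoxa5 (8.15 to 13.5 TPM over the 12 libraries) and Hoxa6 (4.16 to 9.20 TPM) had averaged differences of 0.08 (adjusted p = 0.532) and -0.08 (adjusted p = 0.729). Hoxa10, the last HoxA gene with a sizeable level and a gene of the lumbar region, was at 3.08 to 5.56 TPM in shScram and 3.96 to 6.08 TPM in shFto, with an averaged difference of 0.26 (SE 0.09, adjusted p = 0.0361) that was lost under 13 of 20 alternatives. Hoxd9 ranged from 5.41 to 11.6 TPM and had an averaged difference of 0.04 (adjusted p = 0.844).

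Hoxc13, the last gene of its cluster and known for its role in hair and nail, stood out by stage. It was at 6.72 and 9.13 TPM in shScram preadipocytes, 0.678 and 0.42 TPM at MCE and 0.912 and 0.73 TPM in Diff cells. In shFto it stood at 2.13 and 4.30, 0.125 and 0.0694, and 0.43 and 0.649 TPM. Preadipocytes of each line lay above every induced library of either line, and within preadipocytes the lines did not overlap. From preadipocytes to MCE it fell by 2.52 in shScram (SE 0.26) and by 1.89 in shFto (SE 0.26). The preadipocyte libraries alone carried it past the filter, and in the limma fit with no filter these falls had adjusted p of 0.00107 and 0.00424. The difference between these falls of 0.63 did not pass (SE 0.37, adjusted p = 0.323) and was negative with a pseudocount of 0.1. Between the lines it was lower in shFto, with a difference of -1.12 in preadipocytes (SE 0.26, adjusted p = 0.0158) and of -0.62 on average (SE 0.15, adjusted p = 0.0101). In the limma fit with no filter these adjusted p were 0.0461 and 0.0322. The preadipocyte call was lost without shFto Pre 1 (-0.74, adjusted p = 0.0985), and at MCE the difference was -0.49 (adjusted p = 0.247) with a pseudocount of 1 and -1.70 (adjusted p = 0.0258) with 0.1. The other HoxC genes were low, with Hoxc6 at 0.329 to 1.43 TPM in shScram and 0 to 0.884 TPM in shFto, and Hoxc4 at 0 to 0.312 and 0 to 0.0913 TPM.

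The stage comparisons ask how Hox levels moved during differentiation in each line. The median of all genes was itself displaced, by -0.17 in shScram and -0.18 in shFto from preadipocytes to MCE and by 0.23 and 0.17 from MCE to Diff, so the members are read against those shifts. In shScram from preadipocytes to MCE, 2 members rose (Hoxb4 and Hoxd8; 12.2% of all genes rose) and 2 fell (Hoxa7 and Hoxc13; 26.9% fell), with a median of 0.07 over the 16. In shFto 1 rose (Hoxd8; 8.80%) and 6 fell (Hoxa4, Hoxa7, Hoxb3, Hoxc13, Hoxd3 and Hoxd4; 19.9%), with a median of -0.28. Hoxc13 was counted among the falls of both lines, and in both medians, because preadipocyte libraries alone carried it past the filter. Its place in these counts therefore carries no weight. From MCE to Diff, 6 rose in shScram (Hoxa4, Hoxa7, Hoxa10, Hoxb3, Hoxd3 and Hoxd4; 20.0%) and 3 in shFto (Hoxa3, Hoxb3 and Hoxd4; 20.2%), and none fell in either line, where 5.22% and 6.48% of all genes did. The medians were 0.45 and 0.31. The unadjusted p was under 0.05 for 8 members in shScram and 6 in shFto in that step.

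Hoxd8 rose to MCE by 0.49 in shScram (adjusted p = 0.0176) and 0.54 in shFto (adjusted p = 0.0143). The former was 0.14 (adjusted p = 0.49) after the GC correction and was lost without either shScram MCE library, and the latter was lost without shFto Pre 1 (0.40, adjusted p = 0.104) or either shFto MCE library.

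Several members dipped at MCE. Hoxa7 fell by 0.68 (adjusted p = 0.0116) and by 0.82 (adjusted p = 0.00556) to MCE in shScram and shFto, with adjusted p of 0.0869 without shScram MCE 2 and 0.0521 without shFto Pre 2. Hoxd4, a paralogue of Hoxb4, stood in shScram at 6.37 and 7.94 TPM in preadipocytes, 5.75 and 5.52 at MCE and 10.4 and 12.2 in Diff cells, and in shFto at 9.53 and 12.6, 3.64 and 2.75, and 11.3 and 11.5 TPM. The lines overlapped in Diff cells only. In shFto Hoxd4 fell by 1.52 to MCE (SE 0.19, adjusted p = 0.000392) and rose by 1.58 to Diff (SE 0.19, adjusted p = 0.000531), and in shScram the same steps were -0.29 (adjusted p = 0.24) and 0.89 (adjusted p = 0.00928). The shScram rise had an adjusted p of 0.0643 without shScram MCE 2 and 0.0762 without shScram Diff 2, while both steps in shFto passed under 22 of 22 alternatives.

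Hoxd3, whose exons overlap those of Hoxd4, had a similar course. It stood in shScram at 0.99 and 3.05, 2.77 and 1.47, and 7.04 and 4.87 TPM and in shFto at 4.62 and 4.45, 0.964 and 1.18, and 3.04 and 3.37 TPM. In shFto it fell by 1.42 to MCE (SE 0.33, adjusted p = 0.0121), and the rise to Diff of 1.02 missed the threshold (adjusted p = 0.0504). The fall was lost when any 1 of the shFto Pre or MCE libraries was left out (adjusted p of 0.0542 to 0.0746). In shScram it rose by 1.17 from MCE to Diff (adjusted p = 0.0326), a call lost under 13 of 21 alternatives. Gm28230, the read-through gene that shares these exons, also fell to MCE in shFto and rose from MCE to Diff in both lines.

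Only the difference between the lines in a step can show that their courses differed. From preadipocytes to MCE this difference passed for 2 of 16 members, against 5.11% of all genes: it was -1.06 for Hoxb4 (SE 0.23, adjusted p = 0.0376) and -1.23 for Hoxd4 (SE 0.26, adjusted p = 0.0329). Hoxd3 had -1.52 (SE 0.47, adjusted p = 0.106). The calls were lost under 14 (Hoxb4) and 13 (Hoxd4) of 22 alternatives, which left the sign as it was. The count was 0 when any 1 of 10 libraries was left out, 2 without shScram Pre 1 and 8 without shScram Pre 2. From MCE to Diff limma called 0 members, against 2.49% of all genes, and 3 of 16 had an unadjusted p under 0.05. The steps of a line share their MCE libraries, and so do the comparisons within a stage and between stages.

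The stage counts also rested on single libraries. The shScram count to MCE of 4 was 7 without shScram Pre 2 and 2 without shScram MCE 2. The shScram count from MCE to Diff of 6 was 0 without shScram Diff 2 and 1 without shScram Diff 1, and 2 or 3 without any 1 of the 2 shScram MCE or the 6 shFto libraries. The shFto count to MCE of 7 was 3 without any 1 of the shFto Pre or MCE libraries, and that from MCE to Diff of 3 was 7 without either shScram Pre library. Scaling by the median of gene ratios, or by quantiles, changed the split of the calls. The split of higher to lower calls went from 7 and 1 to 6 and 2 under both for preadipocytes between the lines, from 2 and 2 to 5 and 2 or 3 and 2 for shScram to MCE, from 1 and 6 to 3 and 5 or 3 and 4 for shFto to MCE, and from 3 and 0 to 3 and 1 under the former for shFto to Diff. The calls of shScram from MCE to Diff went from 6 to 2 or 1. After the GC correction the averaged split between the lines was 5 and 4 in place of 8 and 2, that in Diff cells 4 and 3 in place of 4 and 1, and that of shScram to MCE 2 and 5.

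The start regions of 3 members are shown because they moved between the lines and RefSeq lists a promoter for them (build GRCm38.p6). RefSeq listed promoters for 22 of the 38 members, among them Hoxb4 for the HoxB genes that were higher. Each line gives the 250 bases before the annotated start, 5′ to 3′ on the gene's strand, with capitals at matches on either strand to the TATA box (TATAAA), the CCAAT box (CCAAT), the GC box (GGGCGG) or the paired Pbx-Hox site (TGATNNAT).
Hoxb4, chr11:96318017-96318266, plus strand: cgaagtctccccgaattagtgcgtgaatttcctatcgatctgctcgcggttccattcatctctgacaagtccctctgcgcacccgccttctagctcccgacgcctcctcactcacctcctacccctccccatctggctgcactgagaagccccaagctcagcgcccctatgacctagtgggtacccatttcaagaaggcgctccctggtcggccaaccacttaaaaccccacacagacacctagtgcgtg
Hoxd8, chr2:74704365-74704614, plus strand: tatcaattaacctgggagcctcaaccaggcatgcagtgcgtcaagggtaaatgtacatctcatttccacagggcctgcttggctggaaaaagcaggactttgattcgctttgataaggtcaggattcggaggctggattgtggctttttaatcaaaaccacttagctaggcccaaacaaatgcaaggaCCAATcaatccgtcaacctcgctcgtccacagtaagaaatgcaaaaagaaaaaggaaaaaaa
Hoxa2, chr6:52164832-52165081, minus strand: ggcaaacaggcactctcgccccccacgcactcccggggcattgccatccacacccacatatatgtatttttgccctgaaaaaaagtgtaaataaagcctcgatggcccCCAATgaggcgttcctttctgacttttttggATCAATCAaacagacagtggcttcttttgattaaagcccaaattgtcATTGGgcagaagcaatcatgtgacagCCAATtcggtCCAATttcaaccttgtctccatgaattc
The Hoxb4 window held none of the 4 motifs, that of Hoxd8 held CCAAT in 1 place, and that of Hoxa2 held CCAAT in 4 places and TGATNNAT in 1. Among 27025 promoters of this length 34.5% held CCAAT, 32.9% GGGCGG, 13% TATAAA and 7.91% TGATNNAT, and among the 22 members 13, 9, 3 and 3 did. The windows were 58.0% (Hoxb4), 44.4% (Hoxd8) and 46.4% (Hoxa2) G and C. A match is a description of the letters and no evidence of binding.

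Genes that act with or on the Hox clusters were taken from lists. Of the TALE homeodomain cofactors, which bind DNA together with Hox proteins, 8 were tested, and averaged over the stages 3 were higher in shFto (Meis3, Pbx2 and Pbx3) and 1 lower (Pknox2). Only Pbx3 was called at each stage. Within a stage Pknox2 was called in preadipocytes and Diff cells, and Meis3 and Pbx2 in preadipocytes only. There the control libraries stood apart, at 7.82 and 21.3 TPM for Meis3 and 27 and 42.8 TPM for Pbx2. The most abundant, Meis2 at 71.5 to 103.3 TPM, had an averaged difference of -0.15 (adjusted p = 0.191), Pbx2 0.42 (adjusted p = 0.0135) and Meis1 0.01 (adjusted p = 0.909). Of 23 Polycomb genes tested 7 were higher and 6 lower, and of 12 trithorax and H3K27 demethylase genes 3 were higher and 4 lower, shares to be read against 24.5% and 18.3% of all genes. A list of retinoid receptors, retinoid enzymes and Cdx factors had 4 tested genes. The most abundant, Rarg and Rara, were not called between the lines at any stage or on average. Cyp26a1, at most 2.36 TPM in any library, was higher on average, while Cdx2, Cdx4 and Aldh1a2 were listed at 0 in every library. Cyp26b1 was lower on average and within a stage in preadipocytes only, where the control libraries stood at 9.29 and 21.6 TPM. At MCE its means were 9.6 TPM in shScram and 10.4 TPM in shFto. Of 8 tested segment and limb homeobox or T-box genes 5 were higher (En1, Prrx1, Tbx2, Tbx3 and Twist1) and 2 lower (Shox2 and Tbx15). Tbx2 passed the filter through the shFto Diff libraries only (1.76 and 1.65 TPM, at most 0.686 TPM in shScram), so its call carries no weight. Of 10 tested non-member genes within the cluster bounds, the antisense RNA Hoxaas2 was lower on average and none was higher.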

How the data were processed

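The paper describes TRIzol extraction, chemical fragmentation and a selection of 40-60 nt for the m6A and input libraries of cells treated with rhein. Its trimming for RNA-seq kept only longer read pairs, so the preparation of the libraries used here is uncertain. Per the submitters' processing notes, Trim Galore (0.6.5) was used for trimming, HISAT2 (2.1.0) for alignment (build GRCm38) and StringTie (2.1.4) for quantification. The deposited values are TPM per gene and library, a unit scaled to gene length and library total that keeps no depth, so the precision of low values is unknown. Groups follow the sample titles.

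From these, log2(TPM + 1) of the 15968 genes with at least 1 TPM in 2 of 12 libraries was fitted in limma (3.58.1, R 4.3.3) with 6 group means, moderated variances with a trend and 6 residual degrees of freedom. P-values were adjusted by the Benjamini-Hochberg method over all tested genes, and an adjusted p under 0.05 was called. On simulated data of 15968 genes, 164 of 200 genes changed by 2 on the log2 scale were recovered at MCE, with 7 false calls among the unchanged genes. The simulated noise was normal, independent and of 1 spread per gene in all groups. It therefore gives no error rate for these libraries, whose spread differed between groups. Positions came from GENCODE M21 on GRCm38 and promoters from RefSeq. Python 3.11.15 was used for the counts and plots.

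Members printed library by library are the highest of each cluster, those that differed between the lines by over 1 with a call, and those called in a difference of steps; Hoxa2, Hoxb5 and Hoxd3 were added after their values were seen. From each list the rule names the most abundant genes; the called genes of short lists were named after their values were seen. The members and lists were chosen with earlier results of these data known. Some genes and sequences are not reported here. Alternatives were the pseudocount, the filter, the scaling, the variance trend, the libraries fitted, a replicate block, a GC correction and leaving out each library; leaving out shScram Pre 1 together with a pseudocount of 0.1 was chosen after seeing the data.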

Additional observations from a re-analysis of the deposited data

Results flagged for a closer look

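The change from preadipocytes to MCE differed between the lines for 2 members by a test of the difference itself (limma, 15968 genes). For Hoxb4 the difference of the changes, shFto minus shScram, was -1.06 (SE 0.23, adjusted p = 0.0376): 0.83 in shScram and -0.23 in shFto on the log2(TPM + 1) scale. For Hoxd4 it was -1.23 (SE 0.26, adjusted p = 0.0329): -0.29 in shScram and -1.52 in shFto. The shScram Pre libraries enter both and correlated at r = 0.939, against 0.99 to 0.993 in the other groups. Without shScram Pre 1 the differences were -0.86 for Hoxb4 (adjusted p = 0.0179) and -1.09 for Hoxd4 (adjusted p = 0.0188). Over the alternatives the calls were lost in 14 and 13 of 22, all with the same sign.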

How the results depend on the processing

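Averaged over the stages, the calls of Hoxa2, Hoxa7, Hoxb2, Hoxb4, Hoxb6, Hoxc13 and Hoxd8 held under each of the 20 or 21 alternatives in which they were tested, and those of Hoxa4, Hoxa10 and Hoxb3 did not. Counts of called members moved more; the cause was not tested. For shFto against shScram, the preadipocyte count of 8 became 0 with only the libraries of the contrast, 5 with the GC correction and 5 without shScram Pre 1 at a pseudocount of 0.1, and ranged from 3 to 14 leaving out 1 library. The MCE count of 6 became 10 without shScram Pre 1 at a pseudocount of 0.1 (0 to 8 leaving out 1 library), the Diff count of 5 became 8 with no filter (1 to 8), and the averaged count of 10 became 6 at a mean TPM of at least 5 (7 to 12). In shScram the count of 4 to MCE became 7 with median-ratio scaling, 1 with only those libraries and 7 with the GC correction (2 to 7), and that of 6 to Diff became 3 at a mean TPM of at least 5, 2 with median-ratio scaling and 1 with quantile normalization (0 to 9). In shFto the count of 7 to MCE became 4 at a mean TPM of at least 5 (3 to 9), and that of 3 to Diff became 5 with a pseudocount of 0.1, 5 without the variance trend, 9 with only those libraries and 6 with the GC correction (2 to 7). The count of 2 members whose step to MCE differed between the lines became 0 with no filter, 0 with only those libraries and 1 with the GC correction (0 to 8). The 0 members in the step to Diff stayed at 0 in 21 alternatives. The replicate numbers did not pair the libraries (correlations of deviations from -0.29 to 0.172), and with the replicate block the counts were 8, 4, 5 and 9 for the lines, 4 and 5 in shScram, 7 and 3 in shFto, and 0 and 0 for the differences between lines.

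Signs turned in the following. The difference between the lines in the fall of Hoxc13 to MCE was -0.36 with a pseudocount of 0.1 and -0.14 when shScram Pre 1 was also left out, and the step of Hoxb4 to MCE in shFto was 0.01 with quantile normalization. Hoxa4 in Diff cells was 0.03 without shScram Diff 2 and 0.13 without shFto Diff 1 (-0.18 to 0.13 leaving out 1 library). Hoxa10 in preadipocytes was -0.00 with quantile normalization and -0.11 with the GC correction. Hoxb3 at MCE was -0.01 with median-ratio scaling, -0.01 with quantile normalization, -0.25 without shScram MCE 1 and -0.01 without shFto MCE 2 (up to 0.33 leaving out 1 library). Hoxd4 in Diff cells was -0.04 with quantile normalization, -0.03 with the GC correction and -0.09 without shScram Diff 1 (up to 0.12 leaving out 1 library), and on average 0.02 without shScram Pre 2 or shFto MCE 2, 0.00 without shScram Diff 2 and 0.03 without shFto Pre 1. The fit with only the contrast's libraries was not run for the averages, which use all 12. Depth is unknown, which limits members under 1 TPM.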
